A study of Mus musculus with 19 samples.

Results

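The oligosaccharyltransferase (OST) complex of the endoplasmic reticulum was examined through 10 of its subunit genes, Ost4, Dad1, Ddost, Rpn1, Rpn2, Stt3a, Stt3b, Ostc, Tusc3 and Magt1, among the 54232 genes counted in mouse striatum. The genes were taken from a list of complex subunits. The list was put together around Ost4, which was chosen by its measured difference between KI-FL and WT mice, so that the values of Ost4 in the KI genotypes against WT are given as a description without a test. All 10 genes passed the filter on low counts and lay among the 18521 genes tested.

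The libraries came from 7 WT mice and from 4 mice of each KI genotype (KI-96, KI-571 or KI-FL), all of C57/BL/6 background and 6 months old, and each library was 1 mouse. KI-FL mice are HD140Q knock-in mice, in which an expanded repeat lies in exon 1 of the mouse Htt gene, so that full-length mutant huntingtin is made from the endogenous promoter in all cells that use it. KI-96 and KI-571 mice were derived from them by CRISPR/Cas9 cutting of the mutant allele further downstream. The edited alleles encode N-terminal fragments with the same repeat, which end at the residue in the name of the line, not counting the added repeat. In KI-571 brain the study's blots detected only a small fragment, similar in size to exon 1 huntingtin. Both lines descend from edited founders crossed to wild-type mice. According to the study's methods the KI-96 and KI-571 lines were kept heterozygous, so that these mice also carry a normal allele. The zygosity of the KI-FL mice used for RNA is not given in the sources used here. Sex and sacrifice batch are not given for single mice in the sources used here.

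N-glycosylation starts in the endoplasmic reticulum, where a preassembled sugar chain is moved from a lipid carrier to asparagine residues of proteins that enter the lumen. The OST complex performs this transfer. STT3A and STT3B are alternative catalytic subunits. STT3A complexes sit at the translocon and act on chains as they are made, and STT3B complexes act on sites that were missed, together with either TUSC3 or MAGT1 as an oxidoreductase. RPN1, RPN2, DDOST, DAD1 and OST4 belong to both kinds of complex, and OST4 is a very small membrane protein beside the catalytic subunit. OSTC links the STT3A complex to the translocon.

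Ost4 (ENSMUSG00000038803.7) lies on the minus strand of chromosome 5, from 30905885 to 30907788 in GRCm38, and its annotated coding sequence is 114 bases long. The coding sequence is shown because it is the shortest among the subunits and because it lies wholly in the part of the gene that the counts rest on. It was read 5′ to 3′ from GENCODE M21 transcripts, with the start and stop codons in capitals, and it occupies chr5:30907422-30907535.
Ost4 coding sequence: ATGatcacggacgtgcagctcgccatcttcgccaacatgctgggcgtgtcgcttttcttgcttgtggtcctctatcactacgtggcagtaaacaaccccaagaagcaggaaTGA

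It encodes 37 residues. The next shortest coding sequences were those of Dad1 with 342 bases and Ostc with 450 bases, and the longest was that of Stt3b with 2472 bases. Of the 1272 exon bases of Ost4, 677 (53.2%) are also exon bases of Agbl5, a carboxypeptidase gene of the opposite strand whose 3′ end runs into that of Ost4. Both annotated Ost4 transcripts share only bases of their last exon. No coding base of Ost4 is shared. Of 453 genes that lie wholly under exons of the other strand, 447 had 0 counts in all 19 mice, as when strand is ignored and reads on shared bases are given to neither gene. The Ost4 counts then rest on its 595 unshared exon bases. Among the other members, only Rpn1 (131 bases, 2.90%) and Rpn2 (242 bases, 5.46%) share exon bases with another gene. Apart from the overlapping Agbl5, 1 annotated gene, Gm19774, resembled Ost4 over 100 bases or more, with 98.2% identity over 114 bases, and it had between 0 and 3 counts per mouse. In the same search, at 90% identity or more, Rpn2 resembled 530 other genes and Magt1 276. Rpn1 and Stt3a resembled 1 each, and Dad1, Ddost, Stt3b, Ostc and Tusc3 resembled 0. The effect of such stretches on the counts was not tested.

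Between 12669809 and 26388542 reads were counted on genes in each mouse. A pair of libraries stood apart. In KI-96 replicate 3, 24.16% of reads fell outside annotated exons, and genes with fewer than 1000 exon bases lay at a median of -0.85 (log2) relative to their mean over the 19 mice. In KI-FL replicate 4, counts were found on 16384 genes against 23177 to 28700 in the other mice, and the short genes lay at a median of -0.31. The 10 fixed markers of striatal projection neurons were all detected in every mouse, with summed levels of 5720 to 9130 CPM (counts scaled to library size by TMM) in WT, 5370 to 8550 in KI-96, 6510 to 8190 in KI-571 and 6900 to 8210 in KI-FL mice. None of the 10 passed the test in any KI genotype. Astrocyte markers summed to 1610 to 1670 CPM in KI-FL and 1610 to 1980 CPM in WT mice (median log2 fold change of the 7 genes -0.37), and oligodendrocyte markers to 10000 to 11600 and 10700 to 15200 CPM (median of 7 genes -0.24). Cortical neuron markers reached 1010 CPM in WT replicate 3 and at most 410 CPM elsewhere. No gene of these lists was called against WT, and their part in the KI-FL values below was not tested. Choroid plexus markers summed to 5130, 5360 and 3050 CPM in KI-571 replicates 2 and 4 and KI-FL replicate 1, against at most 409 CPM in the other mice. In bulk tissue, fewer cells of a type and less RNA per cell cannot be told apart. Htt itself had 178 ± 9.80 CPM in WT (SD, n = 7), 186 ± 40.1 in KI-96, 124 ± 15.3 in KI-571 and 158 ± 17.5 in KI-FL mice (SD, n = 4 each), and the KI-571 value differed from WT by -0.53 log2 (SE 0.11, edgeR quasi-likelihood adjusted p = 0.0959, DESeq2 adjusted p = 0.00811).

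In WT striatum the subunit genes were expressed at unequal levels. Scaled to unshared exon length, Ddost (45.1 CPM per kb), the gene for the OST48 subunit, and Tusc3 (41.3 CPM per kb) were highest. Rpn2 (26.5), Rpn1 (23.8) and Stt3b (20.3) followed, and then Dad1 (14.0), Ostc (10.8), Magt1 (5.95), Ost4 (5.46) and Stt3a (4.65), all in CPM per kb. With the accessory subunit genes Krtcap2 (18.7 CPM per kb) and Tmem258 (17.1 CPM per kb) included, the ranges of the 7 WT mice overlapped in 8 of 11 neighbouring pairs of this order. They did not overlap between Tusc3 and Rpn2, between Dad1 and Ostc and between Ostc and Magt1. The order depends on the length that is used. Scaled to the length of the transcript with the longest coding sequence, Tusc3 (93.7 CPM per kb) and Dad1 (62.4 CPM per kb) were highest, and Ost4 (5.64 CPM per kb) was lowest of the 12 genes.

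Ost4 was the member with the largest difference between KI-FL and WT mice. In WT mice its level ranged from 2.18 to 5.19 CPM with a median of 3.27 CPM (42 to 88 counts). The KI-FL mice had 7.10, 11.4, 9.70 and 13 CPM (107 to 199 counts). All 4 KI-FL mice lay above the highest WT mouse. This held for 5.29% of all tested genes in either direction, and for Ost4 it follows from how the gene was chosen. The KI-571 mice had 4.76, 9.22, 9.86 and 3.60 CPM, so that replicates 2 and 3 lay above all WT mice and the other 2 lay within the WT range. The KI-96 mice had 5.48, 10.4, 2.01 and 6.12 CPM, with replicate 3 below the lowest WT mouse and the other 3 above the highest.

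The group means of Ost4 were 3.25 ± 1.06 CPM in WT (SD, n = 7), 6.00 ± 3.44 in KI-96, 6.86 ± 3.14 in KI-571 and 10.3 ± 2.52 in KI-FL mice (SD, n = 4 each). The log2 fold changes against WT were 0.89 (SE 0.34) in KI-96, 1.08 (SE 0.34) in KI-571 and 1.67 (SE 0.34) in KI-FL mice, which correspond to 1.85-fold, 2.12-fold and 3.18-fold. The mean of the 3 KI genotypes differed from WT by 1.21 (SE 0.27). The comparisons share the WT mice. Between mice of a genotype, log2 CPM of Ost4 varied with a pooled SD of 0.62, against 0.10 to 0.34 for the other 9 members. KI-96 and KI-571 mice, a contrast that uses neither the KI-FL nor the WT mice, differed by -0.19 log2 (SE 0.39, 95% interval -0.99 to 0.61, edgeR adjusted p = 0.996). No difference between them was detectable, and the interval holds differences of up to 0.99 log2. Against KI-FL mice, on which the choice of Ost4 rests, the log2 values were -0.78 (SE 0.39, edgeR adjusted p = 0.567) for KI-96 and -0.59 (SE 0.38, edgeR adjusted p = 0.655) for KI-571. The choice favours a large difference between KI-FL and WT, so these values are not ranked against it. Xist, a transcript of the inactive X chromosome of females, was 886 to 1610 CPM in KI-96 and at most 5.05 CPM in KI-571 mice. Genotype and sex thus cannot be told apart in KI-96 against KI-571. KI-96 against WT is limited in much the same way, since most WT mice had little Xist.

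**Figure D1:**
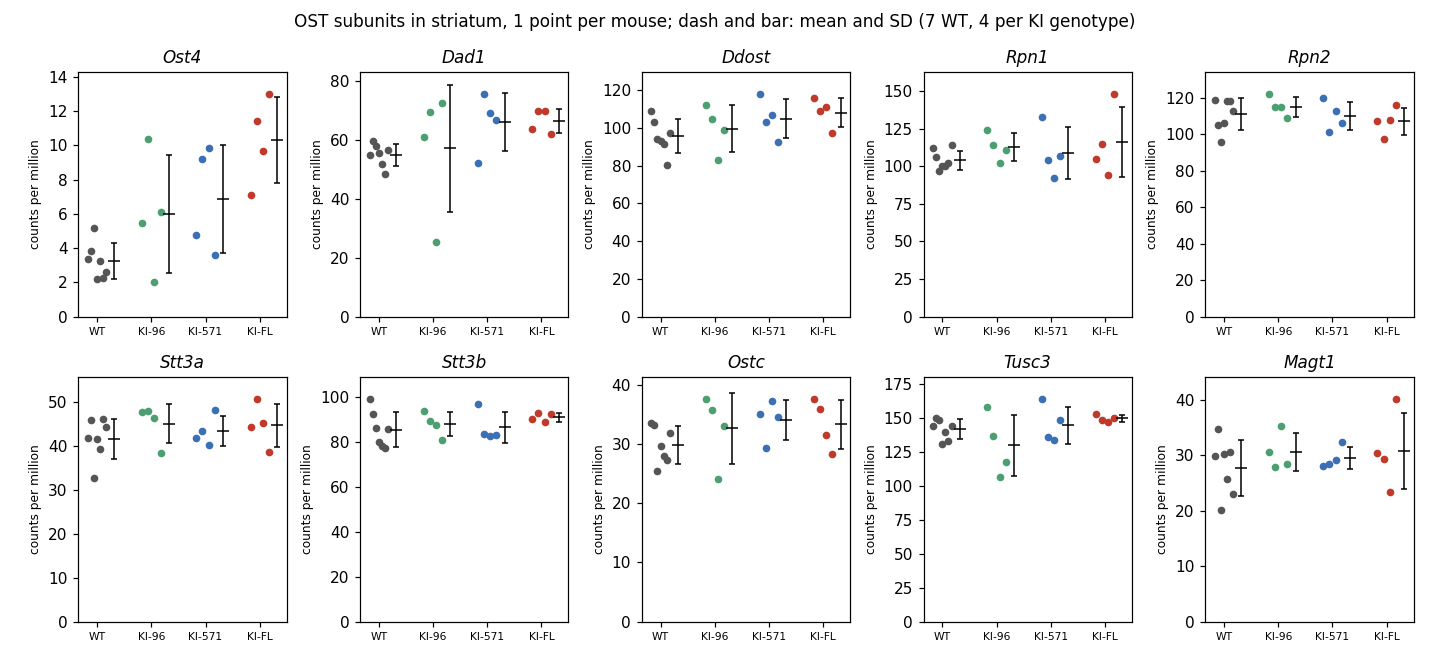
Counts scaled to library size (CPM, y axis, from 0) of the 10 OST subunit genes in each mouse by genotype (x axis), with the mean and SD of 7 WT mice and 4 mice of each KI genotype as a dash and bar. The 4 KI-FL mice sit between 7.10 and 13 CPM for Ost4, above the WT range of 2.18 to 5.19 CPM, and the groups overlap for the other members apart from Dad1 in KI-FL mice.

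Among the 10 members, 1 was called in KI-FL against WT at an adjusted p under 0.05, and it was Ost4, on whose value the list was put together. The background in that comparison was 0.194% of the genes tested, and nothing is read from the count, which was 0 when any 1 of 12 of the 19 mice was left out. No member was called in KI-96 against WT (background 0.0270%), in KI-571 against WT (0.0324%) or in the mean of the KI genotypes against WT (0.0540%) with edgeR. DESeq2 called 0, 0 and 1 member in these comparisons, the 1 being Ost4, where it called 0.151%, 0.622% and 1.54% of all genes tested. At an unadjusted p under 0.05, 0 of the other 9 members passed in any of the 4 comparisons with WT. Of all tested genes, 7.45% in KI-96, 7.72% in KI-571, 16.7% in KI-FL and 12.9% in the mean of the KI genotypes had such a p. Ost4 passed in each of the 4. Nothing is read from that or from its DESeq2 call, since all 4 share the WT mice against which Ost4 was chosen.

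The KI genotypes were also compared with each other. No member was called in KI-96 against KI-571 (background 0.00540%), in KI-96 against KI-FL (0%) or in KI-571 against KI-FL (0.0864%) with edgeR, no member had an unadjusted p under 0.05 in any of the 3, and DESeq2 called none. The 9 members other than Ost4 differed by -0.21 to 0.07 log2 between KI-96 and KI-571 and by -0.08 to 0.04 log2 between KI-571 and KI-FL.

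**Figure D2:**
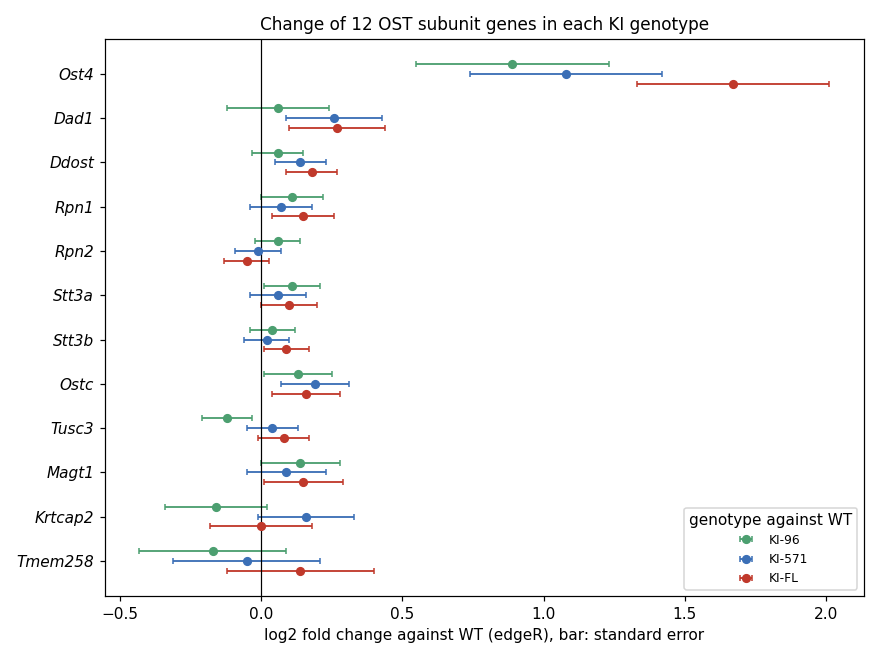
Log2 fold change against WT (x axis) with its standard error as a bar, for 12 OST subunit genes (y axis) in each KI genotype. Ost4 lies at 0.89, 1.08 and 1.67, and the other 11 genes lie between -0.17 and 0.27.

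For the 9 members other than Ost4, the log2 fold changes against WT lay between -0.12 and 0.14 in KI-96, between -0.01 and 0.26 in KI-571 and between -0.05 and 0.27 in KI-FL mice. Their medians were 0.06, 0.07 and 0.15, against medians of -0.015, -0.009 and -0.028 over all tested genes. Their adjusted p-values were 0.338 or higher in these comparisons. Most of the 95% intervals reached from a small decrease to a moderate increase, and the bound farthest from 0 was 0.43 in KI-96, 0.62 in KI-571 and 0.63 in KI-FL mice.

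Dad1, whose product is named as a defender against cell death and sits in every OST complex, had the largest of these values. In WT mice it ranged from 48.3 to 59.4 CPM with a median of 55.3 CPM. The KI-FL mice had 63.7, 69.6, 69.6 and 61.9 CPM and all lay above the WT mice. The KI-571 mice had 52.1, 75.4, 69.1 and 66.5 CPM, and the KI-96 mice had 60.7, 69.4, 25.4 and 72.3 CPM. Replicate 1 of KI-571 lay within the WT range, replicate 3 of KI-96 lay far below it, and the other 6 of these mice lay above it. The log2 fold changes of Dad1 were 0.06 (SE 0.18, adjusted p = 0.967) in KI-96, 0.26 (SE 0.17, adjusted p = 0.811) in KI-571 and 0.27 (SE 0.17, adjusted p = 0.434) in KI-FL mice by edgeR. Without KI-96 replicate 3 and KI-FL replicate 4, an alternative added after seeing the data, the mean of the KI genotypes differed from WT by 0.29 (SE 0.07, edgeR adjusted p = 0.0476) for Dad1, and the number of members called there went from 0 to 2, Ost4 and Dad1. The share of all genes called went from 0.0540% to 1.48% under the same alternative, so that the gain was not limited to the members. The KI-96 value of Dad1 was then 0.30 (SE 0.10, edgeR adjusted p = 0.377). No other member lay wholly above or below the WT mice in any KI genotype, where 1.24% of tested genes in KI-96, 1.55% in KI-571 and 5.29% in KI-FL mice did so.

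The other subunits common to both kinds of complex were close to WT. Ddost had 95.6 ± 9.03 CPM in WT (SD, n = 7) and 99.7 ± 12.3, 105 ± 10.4 and 108 ± 7.69 CPM in KI-96, in KI-571 and in KI-FL mice (SD, n = 4 each), with an edgeR adjusted p of 0.338 in KI-FL. Rpn1, the ribophorin I gene, had 104 ± 6.48 CPM in WT and 113 ± 9.22, 109 ± 17.4 and 116 ± 23.4 CPM in the same order, and its highest value, 148 CPM, was in KI-FL replicate 4. Rpn2, the ribophorin II gene, was among the steadiest of these genes, with 111 ± 8.90 CPM in WT and 115 ± 5.30, 110 ± 7.90 and 107 ± 7.58 CPM in the KI genotypes. Only 1.86% of tested genes had a smaller spread within genotypes than Rpn2.

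Of the catalytic subunits, Stt3a had 41.6 ± 4.64 CPM in WT and 45.1 ± 4.53, 43.4 ± 3.44 and 44.7 ± 4.92 CPM in KI-96, in KI-571 and in KI-FL mice. Stt3b had 85.5 ± 7.98 CPM in WT and 87.9 ± 5.28, 86.4 ± 7.04 and 90.9 ± 1.89 CPM. Of the KI-96 mice, 3 of 4 had more Stt3a than the highest WT mouse, all KI mice lay within the WT range for Stt3b, and neither gene was called. Ostc had 29.8 ± 3.14 CPM in WT and 32.6 ± 5.96, 34.1 ± 3.37 and 33.3 ± 4.16 CPM in the KI genotypes, with its lowest value, 24.1 CPM, in KI-96 replicate 3.

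Tusc3 and Magt1 encode the oxidoreductase subunits. Tusc3 had 142 ± 7.30 CPM in WT and 130 ± 22.4, 145 ± 13.6 and 150 ± 2.59 CPM in KI-96, in KI-571 and in KI-FL mice, and KI-96 replicate 3 (107 CPM) and replicate 4 (118 CPM) lay below the lowest WT mouse (131 CPM). Magt1, which lies on the X chromosome, had 27.8 ± 5.06 CPM in WT and 30.6 ± 3.39, 29.5 ± 2.02 and 30.8 ± 6.91 CPM. Xist, which is expressed from the inactive X chromosome of females, was high in all 4 KI-96 mice (886 to 1610 CPM), was high in 1 of 7 WT mice (1060 CPM, median 0.777 CPM) and was at most 5.05 CPM in KI-571 mice. Of the KI-FL mice, replicate 2 had 1210 CPM and the other 3 had at most 3.20 CPM. Magt1 differed between KI-96 and WT by 0.14 log2 (SE 0.14, edgeR adjusted p = 0.866), and by 0.12 (SE 0.22) with Xist as a covariate.

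The balance between the alternative subunits was followed in each mouse as a log2 ratio of CPM per unshared exon base. The coding sequences of Stt3a and Stt3b were 63.2% identical with no shared run over 18 bases, and those of Tusc3 and Magt1 were 70% identical with no shared run over 17 bases. The Stt3a to Stt3b ratio ranged from -2.48 to -1.83 in WT (mean -2.13 ± 0.21, SD, n = 7), from -2.16 to -1.98 in KI-96, from -2.30 to -1.87 in KI-571 and from -2.34 to -1.96 in KI-FL mice. All KI mice lay inside the WT range. The Tusc3 to Magt1 ratio ranged from 2.55 to 3.33 in WT (mean 2.81 ± 0.30, SD, n = 7), from 2.04 to 2.82 in KI-96, from 2.64 to 2.99 in KI-571 and from 2.35 to 3.10 in KI-FL mice. Tusc3 thus exceeded Magt1 in every mouse, and the lowest ratios, 2.04 and 2.35, were those of KI-96 replicate 3 and KI-FL replicate 4.

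**Figure D3:**
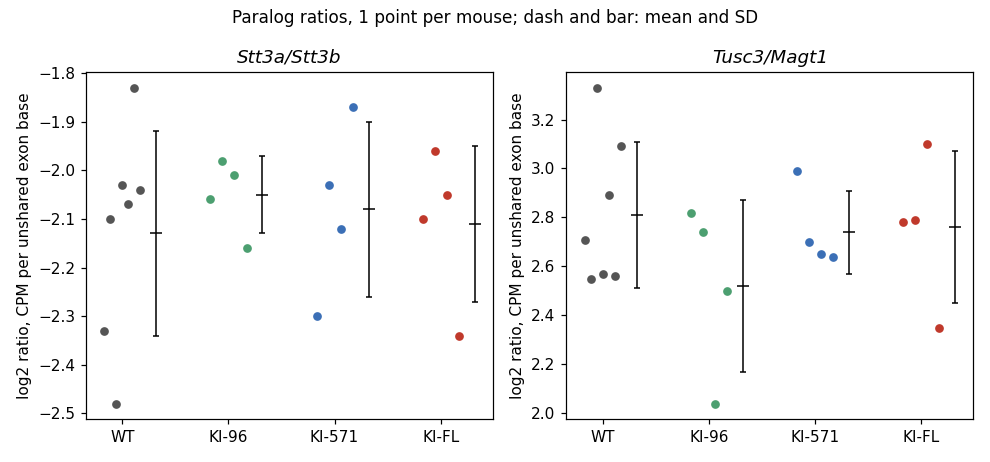
Log2 ratio of Stt3a to Stt3b (left) and of Tusc3 to Magt1 (right), in CPM per unshared exon base (y axis), in each mouse by genotype (x axis), with mean and SD as a dash and bar. The genotypes overlap for both pairs, and the mean of the first ratio lies between -2.13 and -2.05 in the 4 genotypes.

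Krtcap2 and Tmem258, the genes for the other small OST subunits, are no members of the list and were read as a further pair. Krtcap2 had 24.0 ± 1.49 CPM in WT (SD, n = 7), and 21.5 ± 7.75, 26.8 ± 3.84 and 24.1 ± 3.84 CPM in KI-96, in KI-571 and in KI-FL mice (SD, n = 4 each). Tmem258 had 25.3 ± 3.80 CPM in WT and 22.4 ± 11.8, 24.5 ± 6.04 and 27.9 ± 5.03 CPM. Both were lowest in KI-96 replicate 3, with 10.2 and 6.99 CPM, where Dad1, Ostc, Tusc3 and Ost4 were also lowest of the 19 mice and where short genes as a class were low. Neither was called in any comparison by edgeR or DESeq2, and neither had an unadjusted p under 0.05. Their log2 fold changes against WT lay between -0.17 and 0.16.

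Ost4 and Htt start 3.86 Mb apart on chromosome 5, so the genes around them were read as well. Of the 153 tested genes that start within 5 Mb of the Htt start, 1 was called by edgeR in KI-FL against WT (against 0.194% of all tested genes). It was Ost4, on whose value the list was put together. None was called by edgeR in KI-96 (against 0.0270%), in KI-571 (0.0324%) or in the mean of the KI genotypes (0.0540%) against WT. DESeq2 called 5 in KI-FL (Ost4, Ppm1g, Plb1, Letm1 and Grk4, against 2.75% of all genes), 1 in KI-571 (Htt, against 0.622%) and 0 in KI-96 (against 0.151%). In the mean of the KI genotypes it called 4 (Ost4, Dpysl5, Letm1 and Grk4, against 1.54%). These genes other than Ost4 and Htt are named because DESeq2 called them, and were chosen after their values were seen. At an unadjusted p under 0.05 there were 34 of 153 genes in KI-FL (22.2%, against 16.7% of all tested genes), 19 higher and 15 lower, 12 in KI-96 (7.84%, against 7.45%), 11 in KI-571 (7.19%, against 7.72%) and 24 in the mean of the KI genotypes (15.7%, against 12.9%). The median log2 fold change of the 153 genes in KI-FL mice was -0.01.

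The nearest tested genes on each side of Ost4 are given for all genotypes, and their difference from Ost4 was not tested. Agbl5, which overlaps it, differed from WT by -0.10 (SE 0.11) in KI-96, -0.24 (SE 0.11) in KI-571 and -0.01 (SE 0.11) in KI-FL mice, with edgeR adjusted p-values of 0.883, 0.598 and 0.978. It had 23.7 ± 2.12 CPM in WT (SD, n = 7) and 23.6 ± 1.90 CPM in KI-FL mice (SD, n = 4). On the same side, Gm43808 had log2 fold changes of 0.53 (SE 0.40) in KI-96, 0.66 (SE 0.40) in KI-571 and -0.56 (SE 0.44) in KI-FL mice, and 5930420M18Rik had 0.12 (SE 0.41), 0.14 (SE 0.41) and -0.55 (SE 0.43). On the other side, Emilin1, which encodes an extracellular matrix glycoprotein, had 0.26 (SE 0.39), 0.08 (SE 0.39) and 0.35 (SE 0.39) in the same order. Khk, the ketohexokinase gene, had 0.06, 0.27 and 0.30 (SE 0.24 each), and Cgref1 had -0.08, 0.04 and 0.29 (SE 0.14 each). None of these 6 genes was called in any comparison with WT.

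**Figure D4:**
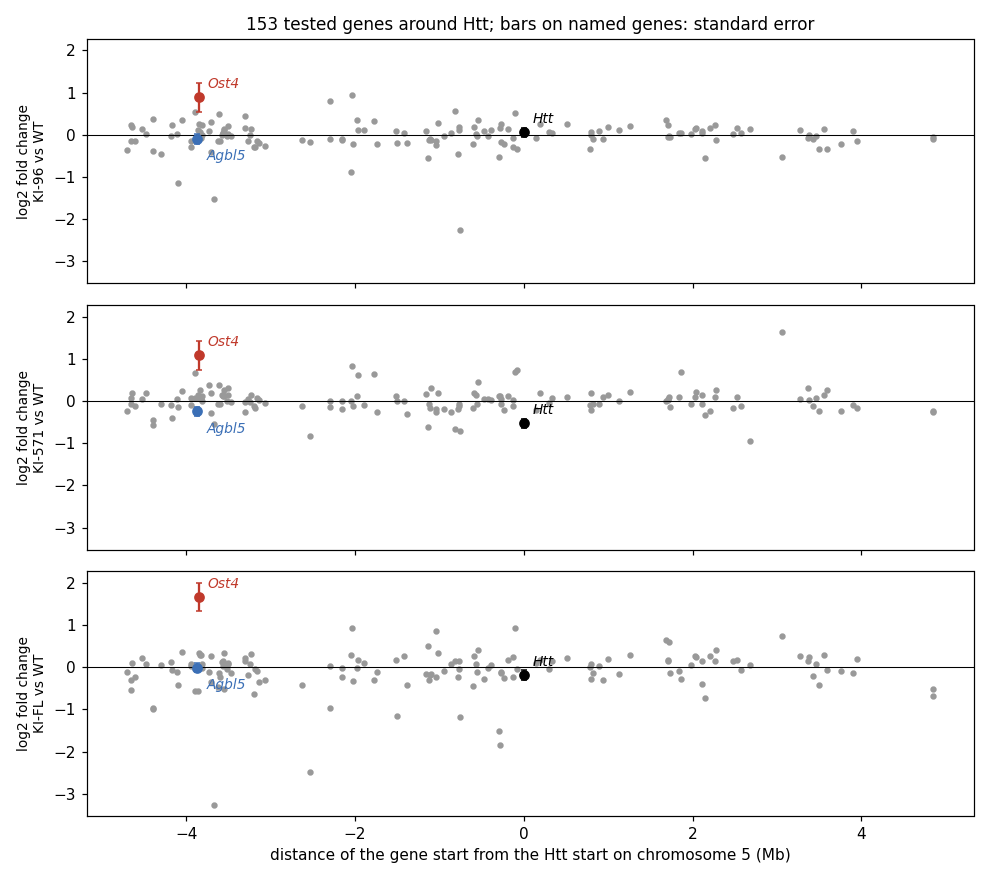
Log2 fold change against WT (y axis) in KI-96, in KI-571 and in KI-FL mice (top to bottom) for 153 tested genes, by the distance of their start from the Htt start in Mb (x axis), with Ost4, Agbl5 and Htt marked with their standard errors. Ost4 stands at 1.67 in KI-FL mice while Agbl5 beside it stands at -0.01 and the median of the genes is -0.01.

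The 5 tested genes whose log2 CPM followed Ost4 most closely over the 19 mice were Ftl1 (Pearson r = 0.944), Naa38 (r = 0.922), A530032D15Rik (r = 0.911), Sdr39u1 (r = 0.909) and Rpl35 (r = 0.907). These values are a description, since the mice share their genotypes and library properties. Ost4 was chosen by its difference between KI-FL and WT mice, so genes that follow it are likely to differ in the same way. Nothing is read from the differences and p-values below. Ftl1, the ferritin light chain gene, had 23.3 ± 4.50 CPM in WT (SD, n = 7) and 45.5 ± 9.24 CPM in KI-FL mice (SD, n = 4), a difference of 0.97 log2 (SE 0.23, edgeR adjusted p = 0.0605). Rpl35, which encodes a ribosomal protein, had 9.86 ± 3.64 CPM in WT and 34.6 ± 17.4 CPM in KI-FL mice, a difference of 1.82 log2 (SE 0.40, adjusted p = 0.0560). None of the 5 was called against WT. Among the other members, Dad1 (r = 0.69) and Ddost (r = 0.60) had the highest r with Ost4 and Rpn2 (r = -0.26) the lowest.

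Of these 5 genes, 4 share a large part of their exon bases with another gene. The share was 34.6% for Ftl1, 34.4% for Naa38, 48.4% for Sdr39u1, 66.2% for Rpl35 and 0.25% for A530032D15Rik, while 6.03% of all tested genes shared over 25%. For the 213 other protein-coding genes that share between 40% and 60% of their exon bases, a class chosen after seeing the data, the median log2 deviation in each mouse was set beside Ost4. It was 0.13 and 0.12 in KI-96 replicates 2 and 4, 0.09 and 0.11 in KI-571 replicates 2 and 3 and 0.12 and 0.12 in KI-FL replicates 2 and 3, where Ost4 lay 0.24 to 1.13 log2 above its mean. In KI-96 replicates 1 and 3 the median deviation was -0.02 and -0.03, with Ost4 at 0.09 and -1.32. In KI-571 replicates 1 and 4 it was -0.01 and -0.03, with Ost4 at -0.11 and -0.51. In KI-FL replicate 1 it was 0.04, with Ost4 at 0.45. In WT mice the median deviation was between -0.01 and 0.05. In KI-FL replicate 4, which had the highest Ost4 level, it was -0.08. As a class these genes had a median log2 fold change of 0.07 in KI-FL against WT, none was called, and 3 of them had a higher value than the 1.67 of Ost4. A second class, also chosen after seeing the data, held 72 genes closer to Ost4, with over 25% of exon bases shared and under 700 unshared. Its median deviation was 0.38 and 0.31 in KI-FL replicates 2 and 3, 0.31 and 0.23 in KI-571 replicates 2 and 3, 0.25 and 0.24 in KI-96 replicates 2 and 4, between -0.21 and 0.12 in WT mice and -1.11 in KI-FL replicate 4. In the other KI mice the class lay at -0.12 and -0.11 (KI-96 replicates 1 and 3), -0.01 and 0.05 (KI-571 replicates 1 and 4) and 0.07 (KI-FL replicate 1). Its median log2 fold change in KI-FL against WT was 0.11, 4 of the 72 genes lay above Ost4, and 1 was called, Apex1, a DNA repair endonuclease gene (1.07, SE 0.21, edgeR adjusted p = 0.0435). The part of these library properties in the Ost4 values was not tested.

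**Figure D5:**
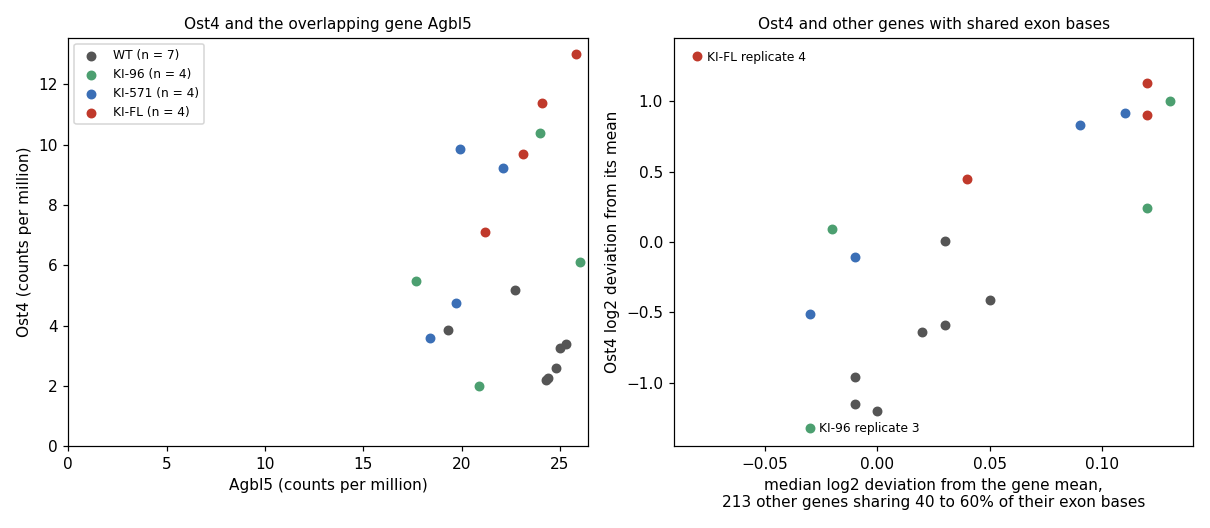
Ost4 against Agbl5 in CPM (left) and the log2 deviation of Ost4 from its mean against the median deviation of 213 other genes that share 40% to 60% of their exon bases (right), 1 point per mouse by genotype. Agbl5 stays between 17.7 and 26.0 CPM while Ost4 spans 2.01 to 13 CPM, and 6 of the KI mice lie at 0.09 or higher on the right-hand x axis, with KI-FL replicate 4 at -0.08.

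The rest of the N-glycosylation pathway was read from 3 further lists of 50 genes in all, each of which was tested. None of the 50 was called by edgeR in any of the 7 comparisons, where 0% to 0.194% of all tested genes were called. In KI-FL against WT, 9 of 50 had an unadjusted p under 0.05 (6 higher and 3 lower, against 16.7% of all tested genes), and in the mean of the KI genotypes 8 of 50 did (3 higher and 5 lower, against 12.9%). DESeq2 called 1 of 50 in KI-571, 1 in KI-FL, 2 in the mean of the KI genotypes and 0 in KI-96, against 0.622%, 2.75%, 1.54% and 0.151% of all genes. The medians of their log2 fold changes were -0.04 in KI-96, 0.02 in KI-571 and 0.03 in KI-FL mice.

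For the 23 genes that build the lipid-linked sugar chain, the median was -0.06 in KI-96, 0.03 in KI-571 and -0.01 in KI-FL mice. Alg6, which adds the first glucose to the chain, had 13 ± 1.68 CPM in WT (SD, n = 7) and 9.85 ± 2.29, 10 ± 2.85 and 10.2 ± 0.961 CPM in KI-96, in KI-571 and in KI-FL mice (SD, n = 4 each), and the mean of the KI genotypes differed by -0.37 log2 (SE 0.13, edgeR adjusted p = 0.215). Alg13, part of the enzyme that adds the second sugar of the chain, differed by -0.31 (SE 0.14, adjusted p = 0.345). Both were named for their small p in that mean, where 3 of the 23 genes had an unadjusted p under 0.05, all lower (12.9% of all tested genes). In KI-FL against WT, 2 of the 23 did, both higher and neither named here (16.7% of all tested genes).

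For the 12 translocon genes the median was -0.05 in KI-96, 0.00 in KI-571 and -0.06 in KI-FL mice. Sec61g, a small subunit of the channel, had 25.8 ± 3.37 CPM in WT and 18.9 ± 3.60 CPM in KI-FL mice, a difference of -0.45 log2 (SE 0.17, edgeR adjusted p = 0.205). Tram1, which encodes a membrane protein beside the channel, had 20 ± 2.04 and 16 ± 1.49 CPM, a difference of -0.32 (SE 0.12, adjusted p = 0.198). Neither gene was called, and both were named for their small p in the mean of the KI genotypes. In KI-FL against WT, 3 of the 12 genes had an unadjusted p under 0.05, against 16.7% of all tested genes. Sec61g and Tram1 were the 2 lower ones. The third, not named here, was higher and had the smallest edgeR adjusted p of the list (0.134).

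For the 15 genes of glycan trimming and glycoprotein folding, the median was 0.06 in KI-96, 0.08 in KI-571 and 0.07 in KI-FL mice. Uggt2 is a paralog of the folding sensor that puts glucose back on unfolded glycoproteins. It ranged from 37.2 to 61.7 CPM in WT (median 43.3) and from 25.6 to 32.5 CPM in KI-FL mice, so that these groups did not overlap. This held for 5.29% of all tested genes in either direction, and Uggt2 was named for its small p in the mean of the KI genotypes against WT. Its difference was -0.64 log2 (SE 0.16, edgeR adjusted p = 0.0800, DESeq2 adjusted p = 0.0144) in KI-FL and -0.43 (SE 0.12, edgeR adjusted p = 0.124, DESeq2 adjusted p = 0.0456) in the mean of the KI genotypes. Os9, a lectin gene of the degradation of misfolded glycoproteins, had 156 ± 13.9 CPM in WT (SD, n = 7) and 182 ± 14.0, 194 ± 21.6 and 180 ± 8.14 CPM in KI-96, in KI-571 and in KI-FL mice (SD, n = 4 each). Its difference was 0.31 log2 (SE 0.09, edgeR adjusted p = 0.226, DESeq2 adjusted p = 0.0385) in KI-571 and 0.25 (SE 0.07, edgeR adjusted p = 0.130, DESeq2 adjusted p = 0.0210) in the mean of the KI genotypes. These genes passed the threshold with DESeq2 but not with edgeR.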

How the data were processed

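Striatal RNA of 19 mice was sequenced, and the authors deposited raw counts of reads per gene, without normalization. Per the study's methods, adapters were trimmed with BBduk, reads were aligned to GRCm38 with STAR and counted with HTSeq. Tool versions, gene models and how strand was handled are not given in the sources used here. The 5 HTSeq summary lines were left out, and 4 columns that match no sample were not used. Symbols were matched for 54079 of 54232 identifiers, and exons were taken from GENCODE M21 (54165 identifiers matched).

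Counts were scaled by TMM, filtered with filterByExpr (minimum count 10, total 15) and fitted across all genes and all 19 mice with edgeR 4.0.16 in R 4.3.3, with 1 coefficient per genotype. The 7 comparisons used the quasi-likelihood F-test with Benjamini-Hochberg adjustment over all 18521 genes and a threshold of 0.05. Log2 CPM used a prior count of 2. Depth was 12669809 to 26388542 counts per mouse. DESeq2 1.42.0, its size factors, other filters, the replicate number as a block, Xist as a covariate, subsets of WT mice and leaving out each mouse were alternatives. On simulated counts for KI-FL against WT (18191 genes), 90% of genes changed 3-fold and 36% of those changed 1.5-fold were called. The changed genes were drawn only from those above a minimum mean count. Apart from the changes, all simulated libraries had a common mean profile, without sex, batch or library differences. These shares are thus not the power for the real libraries. The study removed 1 unnamed WT sample and used a sacrifice batch, neither of which could be applied. Labels name no separate litters, so p-values measure the spread between these mice.

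The members and gene lists were chosen with earlier results of these data known. Named genes were the members, Krtcap2, Tmem258, Htt, up to 2 genes per pathway list with the smallest p in all KI against WT, the 3 nearest tested genes on each side of Ost4, called genes within 5 Mb of Htt, the 5 most alike in Pearson r and Xist. Similar transcripts were searched at 90% identity over 100 bases or more.

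The mice were not paired by replicate number. Of 24 same-numbered pairs, 4 had deviations from the group means correlated above 0.1 (range -0.13 to 0.29). Without values for differently numbered pairs, this cannot tell whether the numbers follow the sacrifice batch.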

Additional observations from a re-analysis of the deposited data

Results flagged for a closer look

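Of 48 sets of a subunit and a genotype, 5 held a mouse set far from the others of its genotype in log2 CPM, by a rule that chance meets in about 1 set in 20. Dad1 in KI-96 replicate 3 was 4.67, with the nearest mouse at 5.93, and Krtcap2 in the same library was 3.37, with the nearest at 4.56. This library had 24.16% of its reads outside annotated exons, and its short genes were low as a class, at a median deviation of -0.85. Stt3a in KI-96 replicate 4 was 5.27, with the nearest mouse at 5.54. Stt3b in KI-571 replicate 1 was 6.60, with the nearest at 6.38, and Tmem258 in the same library was 3.97, with the nearest at 4.74. The causes were not tested.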

How the results depend on the processing

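The Ost4 log2 fold change in KI-FL against WT was between 1.49 and 1.92 under all alternatives tried, leaving out each mouse included (1.54 to 1.81). Every alternative reuses mice on which the choice of Ost4 rests, so nothing is read from this range. The number of members called in KI-FL against WT ranged from 0 to 1 when 1 mouse was left out. It was 0, as was that of genes around Htt, without WT replicate 1, 2, 4, 5, 6 or 7, KI-96 replicate 1, KI-571 replicate 2 or 3, or KI-FL replicate 2, 3 or 4. Both counts were also 0 with the replicate block (Ost4 1.52), with Xist as a covariate (1.64), with WT replicates 1 to 4 alone (1.49) and with WT replicates 5 to 7 alone (1.92). In the mean of the KI genotypes, members and genes around Htt called ranged from 0 to 1 and pathway genes from 0 to 1, with 1 in each without KI-96 replicate 3 or KI-571 replicate 4. Genes around Htt called in KI-571 ranged from 0 to 1 (1 without KI-96 replicate 3 or KI-571 replicate 3), and pathway genes in KI-FL from 0 to 1 (1 without KI-96 replicate 3).

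DESeq2 in place of edgeR called 1 gene around Htt in KI-571, 5 in KI-FL and 4 in the mean of the KI genotypes, 1, 1 and 2 pathway genes in the same order, and 1 member in that mean. With no filter on low counts, which moved the median of all genes in KI-FL by up to 0.156, the mean of the KI genotypes had 1 member, 1 gene around Htt and 1 pathway gene, KI-571 had 1 gene around Htt and KI-FL had 1 pathway gene. With only the groups compared in the fit, KI-571 had 1 and KI-FL 3 genes around Htt, and KI-FL had 1 pathway gene. Without KI-96 replicate 3 and KI-FL replicate 4, a choice made after seeing the data, the mean of the KI genotypes had 2 members, 1 gene around Htt and 1 pathway gene, and KI-571 had 1 gene around Htt. The causes were not tested.

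Of 1035 values of the other 9 members under alternatives, 982 kept their sign and side of the threshold, 52 changed sign and 1 (Dad1) passed the threshold. With the replicate block, where the mice are known to share only a number, Dad1 was -0.03, Ddost 0 and Stt3b -0.02 in KI-96. Under the same block Rpn2 was 0.05 and Stt3b -0.05 in KI-571, and Rpn2 was 0.01 in KI-FL. Rpn2 was 0.06 and Stt3b -0.01 in the mean of the KI genotypes. With Xist as a covariate, Ddost was 0 and Stt3b -0.08 in KI-96, and Rpn2 0.01 in the mean. With WT replicates 1 to 4, Ddost was 0 and Stt3b -0.02 in KI-96, Rpn2 0.05 and Stt3b -0.05 in KI-571, Rpn2 0 in KI-FL, and Rpn2 0.06 and Stt3b -0.02 in the mean. With WT replicates 5 to 7, Rpn2 was -0.02 in KI-96 and Tusc3 0.03 in the mean. Without both libraries, Rpn1 was 0 and Magt1 -0.01 in KI-FL and Tusc3 0.02 in the mean. Leaving out 1 mouse gave Dad1 -0.08 to 0.30 and Ddost 0 to 0.14 in KI-96, Magt1 -0.01 to 0.25 in KI-FL, Rpn1 -0.05 to 0.14, Rpn2 -0.06 to 0.03, Stt3b -0.05 to 0.06 and Tusc3 -0.02 to 0.08 in KI-571, and Rpn2 -0.04 to 0.01 and Tusc3 -0.04 to 0.02 in the mean. The mean log2 ratio over 19 mice was -1.01 for Stt3a to Stt3b and 2.28 for Tusc3 to Magt1 without length scaling, and -1.49 and 3.73 with the length of 1 transcript.

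Ost4 rested on 37 to 199 counts per mouse (42 to 88 in WT) and each of the other 9 members on at least 341 counts in every mouse. The standard errors carry the precision of the fold changes they are given with.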
